A study of Mus musculus with 12 samples.

Results

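Cleavage and polyadenylation (C/P) factors, together with genes that end transcription or hold back premature poly(A) sites, were followed in mouse hippocampal slices after chemical long-term potentiation (cLTP, here LTP). The 39 genes were chosen by name from their known roles, out of 41091 gene IDs in the count tables, and the rule uses no measured value, although the list was set with earlier results of these data known. All 39 were in the tables under 1 ID each, and all 39 passed the filter on low counts in every comparison. RNA-seq of total RNA after ribosomal depletion was available for 12 libraries in 4 groups of 3, namely LTP and control slices at 1 hr and LTP and control slices at 3 hr. The slices were cut acutely from the hippocampus of C57BL/6 animals, wild type in genotype and 2 to 3 months of age. To induce LTP, slices were bathed for 5 min in 50 uM forskolin, which activates adenylyl cyclase, then for 5 min in forskolin with 30 mM KCl and 10 mM Ca2+. Control slices spent the same 10 min in solution with 0.2% DMSO, and every group went through slicing. Slices were frozen 1 hr or 3 hr after treatment. Per the labels, LTP and control slices of 1 number came from the same animal.

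The 3′ end of most messenger RNAs is made by a machine of several complexes. The cleavage and polyadenylation specificity factor (CPSF) reads the poly(A) signal and cuts the RNA, the cleavage stimulation factor (CstF) binds downstream of the cut, the cleavage factor CFIm binds upstream of it, and CFIIm links cleavage to the release of RNA polymerase II. Poly(A) polymerase then adds the tail. Inside introns the same machine is held back by U1 snRNP, which covers cryptic poly(A) signals, and by the cyclin K kinases CDK12 and CDK13, which keep the polymerase elongating. The relative amounts of these factors are known to shift the choice between poly(A) sites.

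Library totals ran from 37118382 to 50815001 counts, and the lowest count of any member in any library was 229, of Clp1. The library of 1 hr control replicate 2 entered no fit unless stated, since it had been set aside as an outlier of clustering when the libraries were first analysed. This left 5 libraries at 1 hr, 6 at 3 hr and 11 in the model of the 4 groups, and its values are given with the others. The slices held RNA of several cell types. Markers of pyramidal neurons summed to between 2520 and 3930 CPM (normalised counts, scaled to library size by TMM) and those of oligodendrocytes to between 5600 and 9100 CPM. Markers of dentate granule cells were not absent (112 to 213 CPM), although the dentate gyrus was trimmed from such slices per the methods. In bulk tissue, fewer cells of a type and less RNA per cell cannot be told apart. Of the 6 activity-induced genes checked, Arc was used to select samples per the methods, so that its rise is no separate check. The other genes, Fos, Egr1, Npas4, Nr4a1 and Btg2, also rose in LTP slices at both times.

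At the level of RNA, the machine was well expressed. Per kb of exon, the median member stood at 9.18 CPM per kb over the 12 libraries, against 3.42 CPM per kb for the median of 18078 genes with a known length. Cstf2t, the autosomal paralog of the RNA-binding CstF subunit Cstf2, had the highest level (35.5 ± 2.82 CPM per kb, SD, n = 12). It was followed by U2af2, the large subunit of the 3′ splice site factor U2AF (26.0 ± 2.01), and by Paf1, a subunit of the polymerase-associated factor (PAF) complex (21.1 ± 3.42). Paf1, the CTD phosphatase Ssu72 (20.8 ± 3.50) and the CFIIm scaffold Pcf11 (19.4 ± 2.59) did not differ beyond their spread. Over both times pooled, the lowest levels were those of the U1 snRNP protein Snrpc (3.06 ± 0.210), the CFIIm kinase Clp1 (3.12 ± 0.617) and Ccnk, which encodes cyclin K (3.47 ± 0.756), and these also lay within each other's spread. The order moved with time: in the 6 libraries of 1 hr Pabpn1 (2.44 ± 0.409 CPM per kb) was the lowest and Snrpc (3.15 ± 0.162) above both it and Clp1 (2.65 ± 0.298), whereas in the 6 of 3 hr Snrpc (2.97 ± 0.228) was the lowest. Cstf2t and U2af2 were the highest pair at each time, and the next was Paf1 (24.3 ± 0.760) at 1 hr but Snrnp70 (18.4 ± 1.73) at 3 hr. The order of all 39 was the same when libraries were scaled by total counts.

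**Figure D1:**
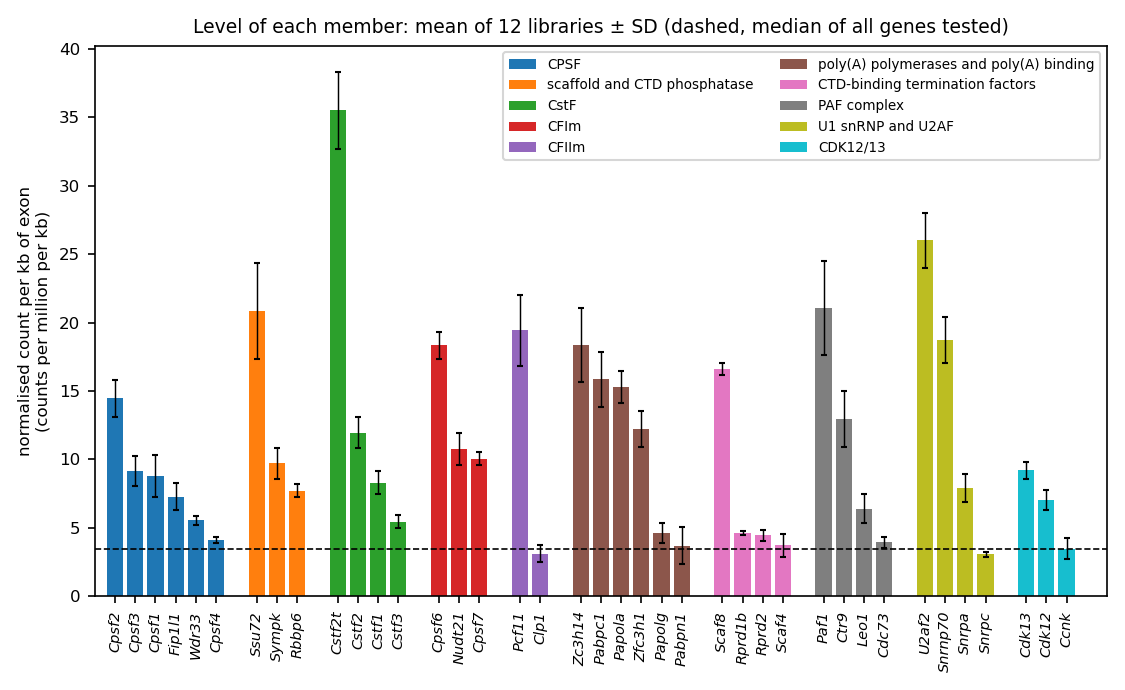
Level of each of the 39 genes in CPM per kb of exon (vertical axis), grouped by role; bars are means of the 12 libraries and lines their SD. Over the pool of both times Cstf2t is highest at 35.5 and Snrpc lowest at 3.06 (at 1 hr alone Pabpn1 is lowest), and the dashed line is the median of all genes tested, 3.42.

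Levels within a complex were uneven. In CPSF, Cpsf2 (14.5 CPM per kb) was the highest subunit and Cpsf4 (4.11) the lowest. The endonuclease Cpsf3 (9.18) and the large subunit Cpsf1 (8.79) lay between them. In CFIm, the large subunit Cpsf6 (18.3) stood above its paralog Cpsf7 (10.1) and above Nudt21 (10.8), the subunit that binds UGUA. Among tail factors, the nuclear poly(A)-binding protein Pabpn1 (3.69) was far below the cytoplasmic Pabpc1 (15.9). Clp1 stood well below its partner Pcf11, and Ccnk below both of the kinases it serves, Cdk13 (9.20) and Cdk12 (7.03).

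At 1 hr, no member passed the test in either direction. A call required a fold change above 1.2 and an adjusted p below 0.1 in edgeR's quasi-likelihood test, with Benjamini-Hochberg adjustment over all genes. The background was low as well: 0.778% of the 17736 genes tested were called higher and 0.0113% lower. An unadjusted p under 0.05 was found for 2 members (5.13%) against 6.71% of all genes tested, and DESeq2 and limma-voom called 0 members. The log2 fold change was above 0 for 23 members and below 0 for 16, with a median of 0.04 against 0.00 over all genes. The median standard error (SE) of a member was 0.0749 on the log2 scale. For 27 of the 39 an approximate 95% interval lay within a 1.2-fold change in either direction. This interval took the normal distribution and is narrower than the test of the p-values allows, so that 27 is an upper bound. LTP and control values of the fitted libraries did not overlap for 11 members (28.2%), against 22.1% of all genes tested.

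The member nearest to a call at 1 hr was Ccnk. Its normalised counts were 9.58, 9.70 and 8.57 CPM in 1 hr control replicates 1, 2 and 3, and 13.3, 12.2 and 10.3 CPM in the LTP replicates. Every LTP library was above every control library, the set-aside replicate 2 included. The log2 fold change was 0.41 (SE 0.130, adjusted p = 0.388, edgeR). Without 1 hr LTP replicate 3, the lowest of the LTP libraries, it was 0.51 and was called (adjusted p = 0.0617, edgeR). It was also called when all 6 libraries were fitted with animal as a block and with offsets for GC content and length (0.40, adjusted p = 0.0813, edgeR).

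Cpsf3, the nuclease that makes the cut, was at 55.9, 52.3 and 59.9 CPM in the 1 hr controls and 50.8, 50.6 and 49.9 CPM in the LTP libraries. The groups did not overlap, but the log2 fold change of -0.19 (SE 0.0732, adjusted p = 0.611, edgeR) did not pass the test. Cstf3, the scaffold of CstF, was at 28.5, 28.7 and 31.0 CPM in control and 33.4, 38.3 and 29.8 CPM in LTP libraries. Its groups overlapped (log2 fold change 0.20, SE 0.103, adjusted p = 0.808, edgeR).

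At 3 hr, 3 members rose and 1 fell. Those that rose were Ccnk, its kinase partner Cdk12, and Zfc3h1, the zinc finger protein that links the nuclear exosome to polyadenylated transcripts. The one that fell was Cstf1, the WD-repeat subunit of CstF. The background was 5.07% of 17508 genes called higher and 1.53% called lower, against 7.69% and 2.56% of the members, so that the shares were near the background. The median over members was 0.04 against 0.00 over all genes, 25 members were above 0 and 14 below, and 10 (25.6%) had an unadjusted p under 0.05 against 20.2% of all genes tested. Values of LTP and control libraries did not overlap for 15 members (38.5%), against 26.5% of all genes tested. Genes called higher made up 76.9% of all calls at 3 hr, and 64.0% with offsets for GC content and length.

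**Figure D2:**
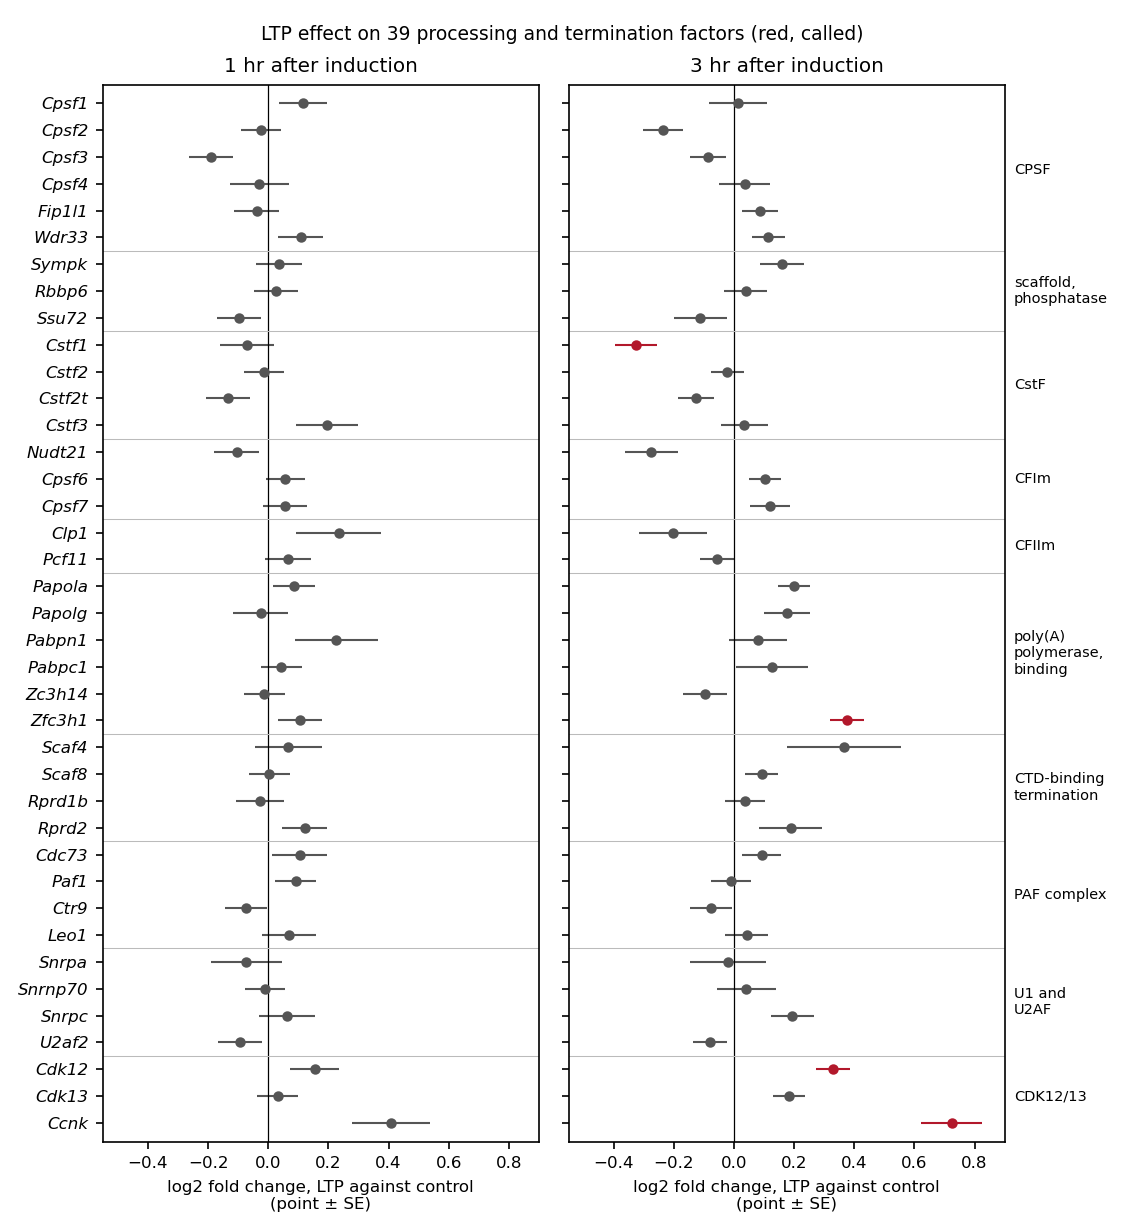
Log2 fold change of LTP against control (horizontal axis, point ± SE) for each member by role at 1 hr (left, 5 libraries) and 3 hr (right, 6 libraries). No member was called at 1 hr; at 3 hr Ccnk (0.72), Zfc3h1 (0.38) and Cdk12 (0.33) were called higher and Cstf1 (-0.33) lower, in red.

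Ccnk had the largest rise of the members. It was at 7.31, 7.88 and 8.68 CPM in 3 hr control replicates 1, 2 and 3, and at 12.8, 12.1 and 14.2 CPM in the LTP replicates. The groups were far apart: the lowest LTP library was above the highest control library, and the log2 ratios within animals 1, 2 and 3 were 0.80, 0.61 and 0.71. The log2 fold change was 0.72 (SE 0.10, adjusted p = 0.00837, edgeR), an increase of 65.1%. The gene lies at chr12:108179579-108203359 on the plus strand (GRCm38, GENCODE M21), and none of its exonic bases were shared with another annotated gene.

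Cdk12, which phosphorylates the polymerase's C-terminal domain together with cyclin K, was at 69.2, 71.0 and 72.2 CPM in 3 hr control and 89.6, 85.3 and 89.5 CPM in LTP libraries. All LTP libraries were again above all controls, with ratios of 0.37, 0.26 and 0.31 within animals. The log2 fold change was 0.33 (SE 0.0564, adjusted p = 0.0201, edgeR). With offsets for GC content and length it was 0.22, under the fold minimum, and the call was also lost without control replicate 1 (adjusted p = 0.117), control replicate 2 (0.124) or LTP replicate 1 (0.115, all edgeR). Cdk12 lies at chr11:98203059-98278504 on the plus strand.

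Cdk13, the paralog of Cdk12 that uses the same cyclin, was at 112.3, 112.5 and 110.4 CPM in 3 hr control and 127.4, 128.4 and 121.3 CPM in LTP libraries. Its groups did not overlap either, but its log2 fold change of 0.18 (SE 0.0537, adjusted p = 0.101, edgeR) was outside both thresholds. The ratio of Cdk13 to Cdk12 per kb was 1.38 ± 0.0419 in 3 hr control and 1.24 ± 0.0658 in 3 hr LTP libraries (SD, n = 3). The 3 genes of the cyclin K kinases thus all lay above 0 at 3 hr, 2 of them called.

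Zfc3h1 was at 86.3, 81.9 and 83.6 CPM in 3 hr control and 110.1, 104.9 and 108.7 CPM in LTP libraries. Its ratios within animals were nearly equal at 0.35, 0.36 and 0.38. The log2 fold change was 0.38 (SE 0.0556, adjusted p = 0.0112, edgeR). At 1 hr it had been 0.11 (SE 0.0727, adjusted p = 0.904, edgeR). Zfc3h1 lies at chr10:115384959-115432772 on the plus strand. Ccnk and Zfc3h1 were called at 3 hr under each alternative processing and with each 3 hr library left out.

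Cstf1 was at 31.4, 31.5 and 32.2 CPM in 3 hr control and 24.1, 26.6 and 24.5 CPM in LTP libraries, so that every LTP library was below every control. The log2 fold change was -0.33 (SE 0.0702, adjusted p = 0.0425, edgeR), with -0.38, -0.25 and -0.39 within animals. The fold held near this value when a library was left out, but the adjusted p did not stay under the threshold without control replicate 1 (0.158), 2 (0.202) or 3 (0.13) or LTP replicate 1 (0.176, all edgeR). At 1 hr the groups overlapped (-0.07, SE 0.0902, adjusted p = 0.956, edgeR). Cstf1 lies at chr2:172370681-172382448 on the plus strand. Its partners in CstF were at -0.02 (Cstf2), -0.13 (Cstf2t) and 0.03 (Cstf3) at 3 hr, none of them called.

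**Figure D3:**
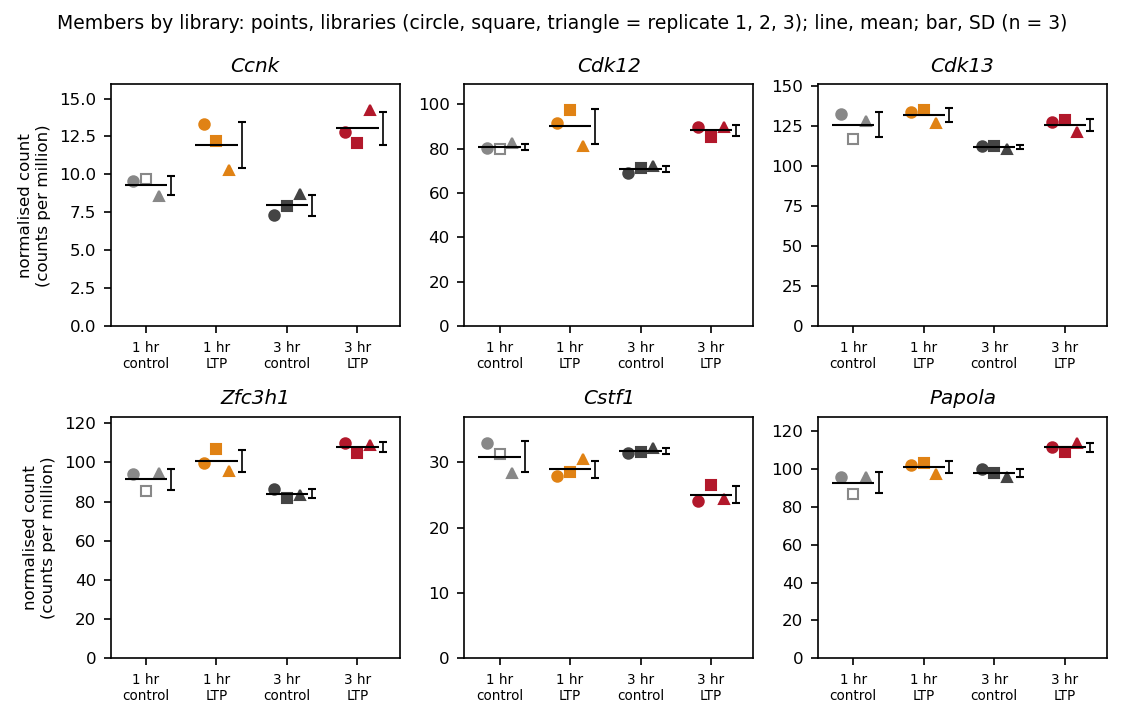
Normalised counts (vertical axis, CPM from 0) of 6 members in each library by group (horizontal axis); the open square is 1 hr control replicate 2, lines are means and bars SD of 3 libraries. The 3 hr LTP and 3 hr control libraries are apart in every panel, for example 12.1 to 14.2 against 7.31 to 8.68 for Ccnk and 24.1 to 26.6 against 31.4 to 32.2 for Cstf1.

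The start regions of the 4 called genes are shown because these genes differed at the same time point. The sequences are RefSeq windows of GRCm38.p6, from 250 bases before to 50 bases after a start site, 5′ to 3′ on the plus strand. Capitals mark the core of the cAMP response element, TGACG, which reads CGTCA on the opposite strand. They also mark the CCAAT box, read as ATTGG on the opposite strand, and the GC box GGGCGG, read there as CCGCCC.
Ccnk, chr12:108179488-108179787: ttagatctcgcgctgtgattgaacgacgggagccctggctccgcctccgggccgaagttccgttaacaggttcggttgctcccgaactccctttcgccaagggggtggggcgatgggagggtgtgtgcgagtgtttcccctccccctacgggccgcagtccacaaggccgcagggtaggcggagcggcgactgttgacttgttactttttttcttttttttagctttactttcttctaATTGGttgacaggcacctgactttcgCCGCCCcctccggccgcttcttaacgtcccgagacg
Cdk12, chr11:98203055-98203354: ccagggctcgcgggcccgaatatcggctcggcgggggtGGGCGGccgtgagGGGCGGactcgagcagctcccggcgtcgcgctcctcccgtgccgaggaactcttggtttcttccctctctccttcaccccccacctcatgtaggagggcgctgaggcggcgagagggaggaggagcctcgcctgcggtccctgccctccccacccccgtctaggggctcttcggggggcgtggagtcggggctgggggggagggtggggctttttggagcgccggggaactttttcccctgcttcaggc
Zfc3h1, chr10:115384709-115385008: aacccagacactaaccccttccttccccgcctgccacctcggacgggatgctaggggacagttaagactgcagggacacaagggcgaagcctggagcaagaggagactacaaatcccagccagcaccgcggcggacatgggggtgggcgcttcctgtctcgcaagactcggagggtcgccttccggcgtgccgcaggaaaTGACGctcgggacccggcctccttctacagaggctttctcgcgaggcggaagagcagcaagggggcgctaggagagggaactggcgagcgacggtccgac
Cstf1, chr2:172370753-172371052: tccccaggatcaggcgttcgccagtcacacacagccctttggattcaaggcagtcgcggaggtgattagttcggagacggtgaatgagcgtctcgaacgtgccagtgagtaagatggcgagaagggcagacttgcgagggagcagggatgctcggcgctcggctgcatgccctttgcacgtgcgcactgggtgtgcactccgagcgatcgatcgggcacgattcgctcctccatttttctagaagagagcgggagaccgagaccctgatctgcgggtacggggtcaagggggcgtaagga

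TGACG was found once, in the Zfc3h1 window, 50 bases upstream of the start. The Ccnk window held ATTGG 12 bases upstream and CCGCCC at base 15 downstream, and the Cdk12 window held GGGCGG 212 and 199 bases upstream. The Cstf1 window held none of these letters. Distances are from the RefSeq start, which lay 159 (Ccnk), 246 (Cdk12), 322 (Cstf1) and 0 (Zfc3h1) bases downstream of the GENCODE start. By the GENCODE coordinates, the marked letters of Ccnk and Cdk12 and the whole Cstf1 window lay inside the genes. A window was listed for 34 of the 39 members, and where several were listed the one nearest to the GENCODE start was taken. The start of that window could still lie far away, by 24058 bases for Zc3h14, 4878 for Rbbp6 and 3042 for Cpsf6. TGACG was in 14 of the 34 (41.2%) against 20.8% of 32851 windows of this length, and the full element TGACGTCA, which contains TGACG, in 1 (2.94%, Snrpa) against 1.79%. CCAAT was in 12 (35.3%) against 37.4%, GGGCGG in 21 (61.8%) against 35.7%, and the AP-1 motif TGANTCA in 1 (2.94%) against 7.81%. The 32851 were all windows of this length, more than 1 for some genes and without a filter on expression, whereas each member had 1. The shares are thus not of like sets. These are matches of letters, and binding was not measured.

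Of the 6 members with an adjusted p under 0.1 at 3 hr, 2 did not reach the fold minimum. Papola, the canonical nuclear poly(A) polymerase, was at 95.8 to 100 CPM in the 3 control libraries and at 111.4, 109.0 and 113.9 CPM in LTP libraries (log2 fold change 0.20, SE 0.0535, adjusted p = 0.0793, edgeR). Cpsf2, the partner of the Cpsf3 nuclease, was at 89.5, 83.7 and 81.8 CPM in control and 73.0, 74.7 and 66.6 CPM in LTP libraries (-0.24, SE 0.0668, adjusted p = 0.0924, edgeR). The groups of both were apart, Papola with higher and Cpsf2 with lower values in LTP slices. Cpsf2 passed the fold minimum with offsets for GC content and length and without 3 hr LTP replicate 2.

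Nudt21 was at 64.5, 60.8 and 55.8 CPM in 3 hr control and 51.03, 53.4 and 43.8 CPM in LTP libraries, again without overlap (-0.28, SE 0.0887, adjusted p = 0.128, edgeR). It was called lower in 6 of 11 alternatives, DESeq2 and the fit with animal as a block among them, and without 3 hr LTP replicate 2. Its CFIm partners Cpsf6 (0.10, SE 0.0533, adjusted p = 0.318, edgeR) and Cpsf7 (0.12, SE 0.0672, adjusted p = 0.36, edgeR) lay on the other side of 0. Cpsf6 was at 183.8, 178.7 and 178.7 CPM in control and 192.6, 198.1 and 185.3 CPM in LTP libraries, and Cpsf7 at 59.8, 62.3 and 67.1 against 68.8, 65.1 and 69.7 CPM. The ratio of Cpsf6 to Cpsf7 per kb was 1.75 ± 0.125 in 3 hr control and 1.73 ± 0.119 in 3 hr LTP libraries (SD, n = 3).

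Wdr33, the CPSF subunit that contacts the AAUAAA signal, was at 66.6, 66.0 and 65.8 CPM in 3 hr control and 72.9, 69.5 and 70.3 CPM in 3 hr LTP libraries. These groups were apart by a small step (0.11, SE 0.0552, adjusted p = 0.289, edgeR). At 1 hr Wdr33 was at 57.7, 68.2 and 62.7 CPM in control and 66.0, 64.9 and 62.4 CPM in LTP libraries (0.11, SE 0.0743, adjusted p = 0.903, edgeR). Papolg, another nuclear poly(A) polymerase, was at 21.9, 21.7 and 19.3 CPM in 3 hr control and 23.3, 24.2 and 22.8 CPM in LTP libraries (0.18, SE 0.0764, adjusted p = 0.241, edgeR). The ratio of Papola to Papolg per kb was 3.90 ± 0.208 in control and 3.96 ± 0.199 in LTP libraries at 3 hr (SD, n = 3).

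Among the CTD-binding termination factors (Scaf4, Scaf8, Rprd1b, Rprd2), 0 of 4 were called at 3 hr although all 4 lay above 0. Scaf4, which holds back early poly(A) sites, was at 17.6, 19.3 and 23.6 CPM in control and 24.9, 19.1 and 33.4 CPM in LTP libraries, and its groups overlapped (0.37, SE 0.190, adjusted p = 0.322, edgeR). It was called higher with animal as a block together with offsets for GC content and length, and without 3 hr LTP replicate 2, which was the lowest LTP library. Over the alternatives and left-out libraries its log2 fold change ran from 0.13 to 0.55. Rprd2 was also called higher without 3 hr LTP replicate 2. The PAF complex (0 of 4 called, log2 fold changes between -0.08 and 0.09), the scaffold and phosphatase genes (0 of 3), CFIIm (0 of 2) and the U1 snRNP and U2AF genes (0 of 4, between -0.08 and 0.19) had no calls at 3 hr. Of these Snrpc alone had an unadjusted p under 0.05 (0.19, SE 0.0718, adjusted p = 0.175, edgeR), while Snrnp70, whose product binds the first stem-loop of U1 RNA, was at 0.04 (SE 0.0990, adjusted p = 0.861, edgeR). For 37 of the 39 members the approximate 95% interval at 3 hr, again from the normal distribution, lay within a 1.5-fold change. The exceptions were Ccnk and Scaf4.

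Direction within animals was also counted, with the set-aside 1 hr control library in its pair. At 3 hr, 12 members (30.8%) were higher and 10 (25.6%) lower in LTP slices of all 3 animals, against 21.3% and 25.3% of 18240 genes. At 1 hr 6 (15.4%) were higher and 3 (7.69%) lower, against 13.1% and 14.0% of these genes. Ccnk, Papola and Zfc3h1 were higher (7.69%), and Cpsf3 and Cstf2t lower (5.13%), in all 6 pairs, where 5.69% and 6.57% of these genes were. Nothing particular to the members is read from these shares. For Cstf2t the log2 fold changes were -0.13 at 1 hr (SE 0.0744, adjusted p = 0.832, edgeR) and -0.13 at 3 hr (SE 0.0604, adjusted p = 0.28, edgeR). Its level was 156.5, 156.3 and 142.7 CPM in 3 hr control against 137.3, 142.9 and 132.8 CPM in 3 hr LTP libraries. Cstf2 was at 99.5, 103.7 and 100.8 against 99.7, 99.96 and 96.9 CPM. The ratio of Cstf2t to Cstf2 per kb was 3.25 ± 0.170 in 3 hr control and 3.02 ± 0.0696 in 3 hr LTP libraries, and 2.99 ± 0.173 and 2.68 ± 0.213 in the 1 hr groups (SD, n = 3).

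Markers of cell types were tested in the same fits. At 1 hr 0 of 41 marker genes passed, while 9 had an unadjusted p below 0.05 (edgeR), 3 of the 5 oligodendrocyte markers (above 0) and 3 of the 4 endothelial markers (below 0) among these. At 3 hr 0 of 5 interneuron, 0 of 5 astrocyte, 0 of 6 microglia and 0 of 5 oligodendrocyte markers were called, and 2, 1, 0 and 0 of them had an unadjusted p below 0.05 (edgeR). Of the 5 pyramidal markers, 1 was called higher at 3 hr and all 5 lay above 0, with a median log2 fold change of 0.06. They summed to 2870 to 2970 CPM in 3 hr control and 2560 to 3930 CPM in 3 hr LTP libraries. The part of cell composition in the changes of Ccnk, Cdk12, Zfc3h1 and Cstf1 was not tested.

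Whether the response differed between the times was asked with the interaction, the 3 hr effect minus the 1 hr effect in the model of the 4 groups. No member passed it (adjusted p under 0.1, with no fold minimum), 4 (10.3%) had an unadjusted p under 0.05 against 6.59% of all genes tested, and no alternative called any, DESeq2 and limma-voom included. The background was 0.0592% of 18584 genes. The members with the smallest p were Zfc3h1 (0.28, SE 0.0871, adjusted p = 0.521, edgeR), Clp1 (-0.43, SE 0.178, adjusted p = 0.704, edgeR) and Cpsf2 (-0.21, SE 0.0892, adjusted p = 0.73, edgeR). For Ccnk the difference was 0.32 (SE 0.166, adjusted p = 0.81, edgeR). Its approximate 95% interval, from the normal distribution and thus somewhat too narrow, ran from -0.0027 to 0.65. Thus its call at 3 hr and the lack of one at 1 hr were not shown to differ. The median SE of the difference was 0.105.

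The 3 hr and 1 hr slices were also compared within each treatment, since 23.3% of all genes were called in both treatments with the same sign. Time after treatment went with slice age and collection, and the labels do not say whether the animals differed, so that these cannot be told apart. In control slices 3 members were higher and 10 lower at 3 hr, where 16.1% and 16.8% of genes were called. In LTP slices 4 were higher and 12 lower, where 18.6% and 17.3% were called. In both treatments with the same sign, 2 members were higher (Pabpn1 and Cpsf1) and 10 lower (Cpsf3, Fip1l1, Ssu72, Cstf2, Pcf11, Papolg, Zc3h14, Paf1, Ctr9 and Leo1). These 12 of 39 members (30.8%) stand against the 23.3% of all genes. LTP and control slices of a time came from the same animals per the labels, so that a call in both is not independent agreement. Clp1 was called in control slices alone, Cpsf2, Sympk, Nudt21 and Scaf4 in LTP slices alone, and 22 members in neither. With offsets for GC content and length, Cpsf2, Sympk, Nudt21 and Scaf4 all lost the call in LTP slices and Clp1 gained one. Of the 22, Snrnp70 was then called lower in both treatments (-0.34 in control and -0.29 in LTP slices), Cstf1 lower and Pabpc1 higher in LTP slices, and Ccnk lower and Cdc73 higher in control slices. With 1 library left out, Cstf1, Pabpc1 and Snrpa were called in LTP slices without 3 hr LTP replicate 2, and Cdc73 in control slices without 1 hr control replicate 1. The call of Scaf4 was also lost without 1 hr or 3 hr LTP replicate 3, and Nudt21 was called in only 3 of 10 alternatives and with 4 of the 11 libraries left out in turn. Clp1 was called in LTP slices too without 1 hr LTP replicate 1 or 3 hr LTP replicate 3, and Sympk in control slices too without 1 hr control replicate 1.

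**Figure D4:**
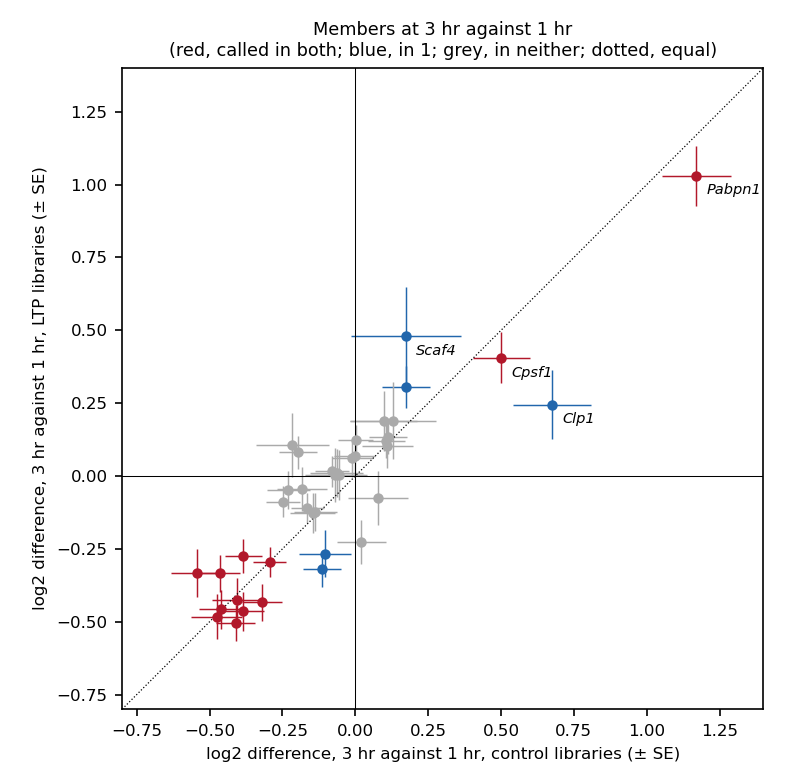
Log2 difference of 3 hr against 1 hr slices for each member in control (horizontal axis) and LTP libraries (vertical axis), each ± SE. The 12 genes in red were called in both treatments, with Pabpn1 at 1.17 and 1.03 farthest from 0 and 10 genes below 0, and the dotted line marks equal values.

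Pabpn1, which sets the length of new poly(A) tails, was at 6.25, 9.50 and 6.49 CPM in 1 hr control and 7.97, 7.70 and 6.54 CPM in 1 hr LTP libraries. At 3 hr it was at 14.6, 12.98 and 16.3 CPM in control and 15.6, 15.1 and 15.3 CPM in LTP libraries. All 6 libraries of 3 hr were above all 6 of 1 hr. The log2 differences were 1.17 in control (SE 0.119, adjusted p = 4.82e-05, edgeR) and 1.03 in LTP slices (SE 0.103, adjusted p = 2.29e-05, edgeR), and the LTP effect passed the test at neither time (0.23 at 1 hr, adjusted p = 0.874, and 0.08 at 3 hr, adjusted p = 0.682, edgeR). The ratio of Pabpc1 to Pabpn1 per kb went from 6.13 ± 1.73 to 3.42 ± 0.572 in control libraries (SD, n = 3). Pabpn1 (chr14:54892500-54898169) shares 21.4% of its exonic bases with Gm20521 on the same strand, so that its counts are uncertain to that extent.

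Cpsf1 was at 40.5, 51.7 and 37.8 CPM in 1 hr control and 53.1, 52.3 and 63.9 CPM in 3 hr control libraries, and at 40.3, 42.4 and 43.5 against 56.9, 51.7 and 60.8 CPM in LTP libraries. In control slices the set-aside 1 hr library was close to those of 3 hr. The log2 differences were 0.50 (SE 0.0991) and 0.41 (SE 0.0876), and neither kept its call with offsets for GC content and length. Clp1 was at 5.91, 7.55 and 6.77 CPM in 1 hr control and 10.6, 10.98 and 9.46 CPM in 3 hr control libraries, a difference of 0.67 (SE 0.134, adjusted p = 0.00229, edgeR) without overlap. In LTP slices it was at 8.07, 6.57 and 7.59 against 9.18, 9.91 and 7.57 CPM, which overlapped (0.24, SE 0.118, adjusted p = 0.119, edgeR), and the interaction given above was not called.

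In the PAF complex, which travels with the elongating polymerase, 3 of 4 subunits were called lower at 3 hr in both treatments. Of all genes, 16.8% were called lower in control slices alone considered and 17.3% in LTP slices alone considered. The share called in both treatments with the same sign, in either direction, was 23.3%. Paf1 was at 79.0, 83.2 and 82.2 CPM in 1 hr control against 59.9, 62.6 and 63.1 CPM in 3 hr control libraries. In LTP libraries it was at 83.8, 85.6 and 86.4 against 59.3, 58.0 and 65.4 CPM, and the times did not overlap in either treatment (-0.41, SE 0.0681, adjusted p = 0.000745, and -0.50, SE 0.0616, adjusted p = 7.89e-05, edgeR). Ctr9 was at 120.3, 111.9 and 127.1 against 92.95, 96.6 and 85.4 CPM in control libraries, and at 114.6, 112.4 and 123.0 against 90.9, 86.6 and 80.6 CPM in LTP libraries (-0.46 in each, SE 0.0738 and 0.0669). Leo1 had differences of -0.41 (SE 0.0856) and -0.43 (SE 0.0774). Cdc73 was at 0.11 (SE 0.0871) and 0.10 (SE 0.0777) and was not called.

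Ssu72 was at 65.5, 60.9 and 70.3 CPM in 1 hr control and 51.8, 50.1 and 47.6 CPM in 3 hr control libraries. In LTP libraries it was at 64.1, 60.4 and 64.4 against 45.6, 50.98 and 40.3 CPM, again without overlap. The log2 differences were -0.48 (SE 0.0863) and -0.48 (SE 0.0783). Ssu72 shares 15.1% of its exonic bases with 1500002C15Rik on the other strand, and Zc3h14 (-0.39 and -0.46) 12% with Eml5, also on the other strand. Papolg (-0.54, SE 0.0914, and -0.33, SE 0.0826) was lower at 3 hr while Papola (0.00, SE 0.0591, and 0.12, SE 0.0528) was not called, and the Papola to Papolg ratio went from 2.76 ± 0.170 to 3.90 ± 0.208 in control libraries (SD, n = 3). With offsets for GC content and length, 5 of the 12 kept both calls. These were Pabpn1, Ssu72, Paf1, Ctr9 and Leo1, which also kept them under the other alternatives and with each library left out.

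**Figure D5:**
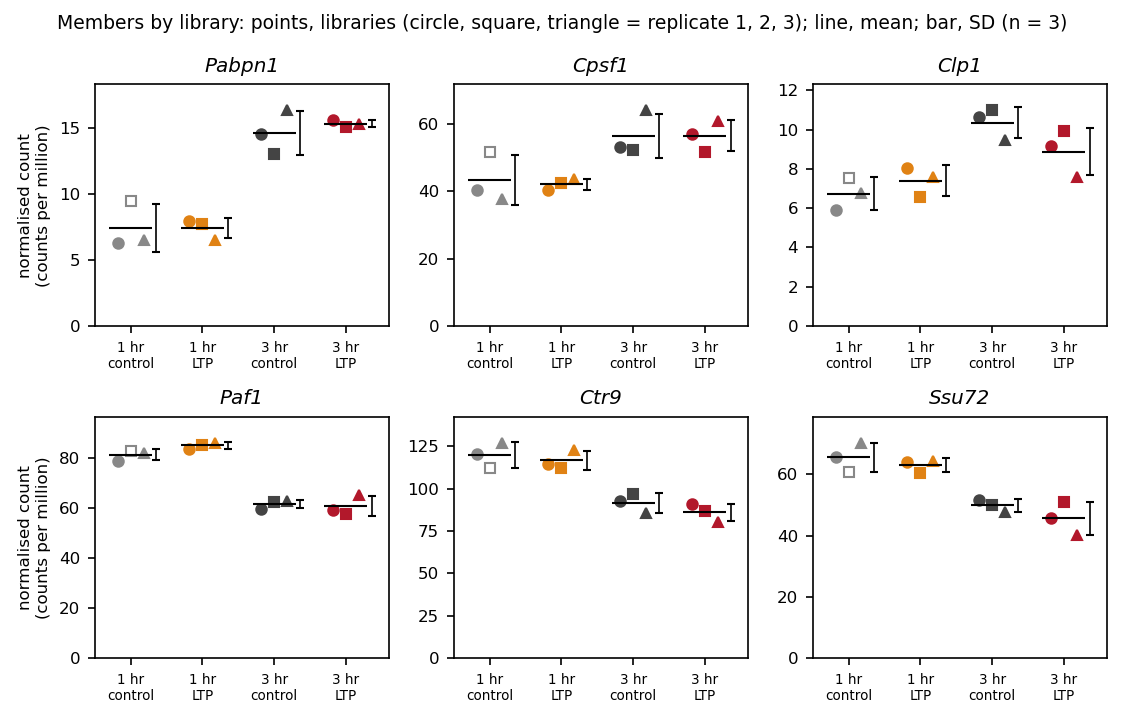
Normalised counts (vertical axis, CPM from 0) of 6 members that differed with time, in each library by group (horizontal axis); the open square is 1 hr control replicate 2, lines are means and bars SD of 3 libraries. Pabpn1 is at 12.98 to 16.3 at 3 hr against 6.25 to 9.50 at 1 hr, and Paf1 at 58.0 to 65.4 against 79.0 to 86.4.

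Cell type markers differed with time as well. The 6 microglia markers summed to 237 to 266 CPM in the 1 hr libraries and 165 to 202 CPM in the 3 hr libraries, and 5 of the 6 were called lower in both treatments. The 3 mural markers summed to 126 to 146 CPM at 1 hr and 99.0 to 110.0 CPM at 3 hr, and the 5 oligodendrocyte markers to 5600 to 8120 CPM at 1 hr and 7330 to 9100 CPM at 3 hr. Of the 4 endothelial markers, 3 were called lower in control slices, and 1 lower and 1 higher in LTP slices. The 5 pyramidal markers split, with 1 higher and 1 lower in control slices and 2 higher and 1 lower in LTP slices. Of all 41 markers, 5 were higher and 13 lower in control slices, and 6 higher and 12 lower in LTP slices. The part of these shifts in the time differences of the members was not tested.

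Related genes were examined as 6 lists of 87 genes in all. The LTP effect at 1 hr was called for 1 of them, Srsf7, a splicing factor that also acts on poly(A) site choice (0.31, SE 0.0711, adjusted p = 0.081, edgeR). At 3 hr the lists of Integrator (14 genes), other 3′ end and termination factors (20) and nuclear RNA decay (8) had no call, with 2 genes of each at an unadjusted p under 0.05. Among 13 pause release and elongation genes Polr2a, the largest subunit of RNA polymerase II, was higher at 3 hr (0.64, SE 0.0720, adjusted p = 0.00386, edgeR). Among 19 RNA-binding proteins of poly(A) site choice, Nova2 (0.69, SE 0.131, adjusted p = 0.0281, edgeR) and Celf2 (0.60, SE 0.0709, adjusted p = 0.00475, edgeR) were higher. Among 13 other U1 snRNP and branch site genes, the Sm protein Snrpd3 was lower (-0.35, SE 0.0706, adjusted p = 0.0356, edgeR). Thus 3 of the 87 were called higher and 1 lower at 3 hr, beside 5.07% and 1.53% of all genes tested. At 1 hr 0.778% of all genes tested had been called higher. The interaction was called for none of the 87 (edgeR; 4 at an unadjusted p under 0.05). Between the times, 9 of the 87 were higher and 17 lower at 3 hr in control slices, and 11 higher and 12 lower in LTP slices. Of all genes tested, 16.1% were higher and 16.8% lower in control slices, and 18.6% higher and 17.3% lower in LTP slices. Examples called in both were the Sm protein Snrpb (0.80 and 0.75), the Integrator subunit Ints1 (0.53 and 0.67) and the neuronal RNA-binding protein Elavl4 (-0.64 and -0.65).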

How the data were processed

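Stranded RNA-seq of total RNA was analysed in 12 libraries. The authors deposited raw counts per gene, not normalized, in 1 table per time point, made from STAR alignments to GRCm38 (mm10 per the labels) with Bioconductor packages. Whether counting used strand is not given in the sources used here. Of 41091 gene IDs, 40217 matched GENCODE M21 of the same assembly.

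Counts were tested with edgeR 4.0.16 (glmQLFit and glmQLFTest, R 4.3.3) over all genes after filterByExpr and TMM, with Benjamini-Hochberg adjustment. The 3 hr effect, the 1 hr effect, their difference and the time differences were tested. A call needed a fold change above 1.2 (not for the difference) and an adjusted p below 0.1. CPM values were scaled by TMM over the 12 libraries, and ratios within animals used a pseudocount of 0.1 CPM. A floor of 3 counts was at most 0.0808 CPM, far below all members.

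The 39 genes and all lists were chosen with earlier results of these data known. Values in every library are given for members called in an LTP comparison or the interaction, the 3 with the smallest p in each, the 3 with the smallest p per direction among those called in both time differences, Wdr33 and paralog pairs; Nudt21 and Scaf4 were added after their values were seen. The animal number pairs LTP with control slices per the labels. Deviations from group means of paired libraries correlated at -0.017, -0.134 and 0.074 across genes in the 1 hr animals, and the 3 hr animals gave 0.03, -0.038 and 0.194. The labels reuse the numbers at both times, and the times were fitted as different animals, which the labels do not state. Alternatives were DESeq2 1.42.0, limma-voom (limma 3.58.1), other scalings and filters (at least 10 counts), GC content and length offsets (splines with 5 degrees of freedom), an animal block, all libraries and leaving out each library.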

Additional observations from a re-analysis of the deposited data

How the results depend on the processing

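No member's value that was called in the fits as reported turned direction under any alternative. Among values not called there, Snrnp70 at 3 hr against 1 hr in LTP slices was at 0.00 and was called lower (-0.29) with offsets. At 1 hr the count of 0 called members became 1 with the animal (replicate) block and GC content and length offsets over all 6 libraries, and lay between 0 and 1 when 1 library was left out, with 1 (Ccnk) without 1 hr LTP replicate 3. At 3 hr the 4 called members became between 2 and 8 when 1 library was left out: 2 without control replicate 1, control replicate 2 or LTP replicate 1, and 8 without LTP replicate 2. The animal block alone gave 5 members at 3 hr (Nudt21 was added), the offsets alone 5 (Nudt21 and Cpsf2 were added and Cdk12 was lost), and the block with the offsets 6 (Nudt21, Cpsf2 and Scaf4 were added and Cdk12 was lost). Cdk12 was at a log2 fold change of 0.22 in both fits with offsets. The interaction gave 0 members in every alternative. Members called between times were 11 to 14 in control and 11 to 19 in LTP slices over all alternatives and left-out libraries. Over all genes, the 140 calls at 1 hr became 347 with no filter beyond 1 count, 251 with block and offsets, and between 69 and 344 with 1 library left out. The 1155 calls at 3 hr became 1761 with block and offsets, and between 228 and 2170 with 1 library left out. The 11 interaction calls became 77 (DESeq2), 102 (no filter), 28 (offsets), 7 (block over 12 libraries) and between 1 and 67 with 1 library left out. The cause of these shifts was not tested.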
